A study of Mus musculus with 4 samples.

Results

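The genes described here are 10 cyclic nucleotide phosphodiesterases, followed across the cell classes of the mouse spinal dorsal horn in animals with and without the orphan receptor gene Gpr37l1. They are Pde1a, Pde1c, Pde3a, Pde3b, Pde4b, Pde4d, Pde7b, Pde8b, Pde10a and Pde11a, matched by symbol to the gene list of the count tables, and they are 10 of its 32285 genes. All 10 were found. The members were chosen by family with measured values in view, namely the UMIs of these genes per cell class and library, so every level and ratio of a member below is a description of 4 libraries and carries no test.

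Phosphodiesterases end cyclic nucleotide signals by hydrolysing cAMP or cGMP, the messengers made by adenylyl and guanylyl cyclases. The products of Pde4b, Pde4d, Pde7b and Pde8b are specific for cAMP. Those of Pde3a and Pde3b hydrolyse cAMP and are inhibited by cGMP, those of Pde1a and Pde1c act on both messengers and are stimulated by calcium and calmodulin, and those of Pde10a and Pde11a also act on both. In the nervous system Pde10a is best known from striatal projection neurons, and the Pde4 family is the target of rolipram and related anti-inflammatory compounds. Gpr37l1 encodes a G protein-coupled receptor found mainly on astrocytes.

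The study profiled nuclei of freshly dissected spinal dorsal horn with a droplet-based assay that counts the 3′ ends of transcripts as unique molecular identifiers (UMIs). Its 4 groups were Gpr37l1+/+ (wild-type) naive, Gpr37l1-/- (knockout) naive, Gpr37l1+/+ at 1 day after spared nerve injury (SNI, a surgical model of neuropathic pain), and Gpr37l1-/- at 1 day after SNI. Each group was 1 library, so no difference has a replicate check, and a difference between groups cannot be told apart from one between libraries. The titles and library names define the groups here. The separate treatment label goes against the title of the knockout naive and of the wild-type SNI library, and the molecule label reads total RNA for the knockout SNI library and polyA RNA for the others. Age, sex, strain, the kind of Gpr37l1 deletion and the number of animals pooled per library were not given in the sources used here. Lists of 4 values below keep the order of the groups just given, wild type before knockout and both naive libraries before both SNI libraries.

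The libraries held 19942 to 37552 barcodes with 35197290 to 69572640 UMIs each, and 101270 nuclei of 112746 barcodes were kept. Between 162 and 293 barcodes were shared by a pair of libraries, at most 1.05% of either. Nuclei were clustered jointly and the clusters were named from marker genes as astrocyte-like, oligodendrocyte-like, committed oligodendrocyte precursor-like (COP), oligodendrocyte precursor-like (OPC), microglia-like, excitatory neuron-like and inhibitory neuron-like. These 7 classes are written below without the suffix. Between 23.3% and 43.7% of the nuclei of a library stayed unnamed. Gpr37l1 itself stood at 148 CPM (the UMIs of a gene scaled to the UMI total of its class in that library) in wild-type naive astrocytes and 146 CPM in wild-type SNI astrocytes. It had 0 UMIs in knockout naive and 2 UMIs in knockout SNI astrocytes, so the gene did not conflict with the genotype labels. The knockout naive library stood apart in its glia: the summed level of 8 general neuron markers in astrocytes was 2598, 8748, 3739 and 4283 CPM, with none of the 8 at 0 in any library. The comparison of genotypes in SNI cord and that of SNI with naive in wild type do not use that library. Both use the wild-type SNI library, which shared another feature with it. Cluster 1 (led by Actb, Ccdc152 and Insig1), which stayed unnamed, held 102, 4820, 4925 and 223 nuclei. The bearing of this cluster on the comparisons was not tested.

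All members lie on GRCm38 autosomes as protein-coding genes, and 9 of the 10 span more than 200 kb (Pde3b spans 124 kb, at chr7:114415281-114539251 on the plus strand). Pde10a lies at chr17:8525372-8986648 (plus strand), Pde4b at chr4:102087543-102607259 (plus strand) and Pde4d, the longest at 1504 kb, at chr13:108449948-109953461 (plus strand). The RefSeq promoter table (GRCm38.p6) held 8 of the 10 members, with 21 start sites among them. Pde3a and Pde3b were not among them. Cyclic AMP-driven transcription is classically tied to the palindrome TGACGTCA, or to its TGACG part, bound by CREB. In the 250 bases before each start site, searched on both strands, TGACGTCA was in 0 of the 21 windows, against 1.55% of all 32851 windows in the table. The shorter TGACG, which any TGACGTCA also contains, was in 2 of the 21, against 17.8% of all windows. The windows below are those of the 2 members that hold TGACG, with the match in capitals (both matches lie on the opposite strand, so the letters read CGTCA), and the first Pde10a window, since the comparisons that follow turn most on Pde10a.
Pde4b, chr4:102421305-102421554, plus strand: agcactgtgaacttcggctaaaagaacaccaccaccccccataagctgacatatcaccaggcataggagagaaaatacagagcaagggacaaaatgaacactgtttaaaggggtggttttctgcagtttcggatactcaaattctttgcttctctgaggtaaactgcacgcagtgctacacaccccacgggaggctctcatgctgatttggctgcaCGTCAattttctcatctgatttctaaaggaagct
Pde1a, chr2:80038903-80039152, minus strand: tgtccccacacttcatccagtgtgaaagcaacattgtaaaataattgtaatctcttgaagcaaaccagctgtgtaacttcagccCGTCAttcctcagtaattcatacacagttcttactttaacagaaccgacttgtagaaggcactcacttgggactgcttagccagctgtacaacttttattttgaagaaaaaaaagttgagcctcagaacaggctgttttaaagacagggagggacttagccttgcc
Pde10a, chr17:8801495-8801744, plus strand: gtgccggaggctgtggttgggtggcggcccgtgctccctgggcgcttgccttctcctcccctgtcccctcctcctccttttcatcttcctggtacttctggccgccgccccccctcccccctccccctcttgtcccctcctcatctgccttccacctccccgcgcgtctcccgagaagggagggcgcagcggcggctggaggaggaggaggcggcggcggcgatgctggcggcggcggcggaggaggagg
GC content was 46% in the Pde4b window, 41.6% in the Pde1a window and 72.8% in the Pde10a window. A match is a description of these letters and says nothing of whether a factor binds there.

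Of the cAMP-specific enzymes, Pde4b was the gene of the oligodendrocyte lineage. Its level in oligodendrocytes was 7103, 6040, 6704 and 6670 CPM, with no overlap with the next class, COP, at 2595, 2788, 2467 and 2926 CPM. OPC followed at 1814, 1627, 1743 and 1645 CPM, so the 3 classes of the lineage did not overlap. Excitatory neurons (1225, 1450, 1218 and 1326 CPM) stood above microglia, astrocytes and inhibitory neurons, and those 3 overlapped. With each nucleus thinned to 1000 UMIs, Pde4b was seen in 98.1% to 99.0% of oligodendrocyte nuclei and in 28.3%, 47.8%, 30.0% and 35.8% of inhibitory neurons, the class with the lowest level. Unthinned, the shares were 97.8% to 98.6% and 41.7% to 68.9%, at median depths of 731 to 950.5 UMIs in oligodendrocytes and 1454 to 1918 UMIs in inhibitory neurons. Within oligodendrocytes, cluster 2 had 8586, 8531, 7971 and 8061 CPM and cluster 3 had 5723, 4762, 5505 and 5501 CPM, so the clusters did not overlap either.

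Pde4d was lowest in the class where Pde4b was highest. Astrocytes were highest, at 1913, 1766, 1769 and 1715 CPM, but did not separate from excitatory neurons (1781, 1806, 1733 and 1744 CPM) or COP (1986, 1795, 1448 and 1366 CPM). Oligodendrocytes were lowest, at 359, 747, 397 and 438 CPM, below every library of every other class. After thinning, 79.1% to 85.1% of astrocyte nuclei and 27.8%, 49.6%, 32.4% and 34.2% of oligodendrocyte nuclei held a Pde4d UMI. The 4 astrocyte libraries lay close together, whereas the knockout naive library stood above the other 3 in oligodendrocytes.

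Pde7b, a further cAMP-specific enzyme, marked astrocytes (483, 405, 524 and 565 CPM) and OPC (510, 358, 464 and 494 CPM), which overlapped each other. Excitatory neurons, next in the order at 125, 150, 132 and 141 CPM, did not reach either class. Oligodendrocytes had the lowest levels, 15.2, 56.7, 24.7 and 29.0 CPM. Thinned shares put this in nuclei: 31.6% to 43.3% of astrocytes and 1.41%, 4.43%, 2.14% and 2.28% of oligodendrocytes held a Pde7b UMI. Pde8b, whose product has a high affinity for cAMP, was highest in OPC (186, 187, 194 and 232 CPM), just above COP (150, 180, 181 and 180 CPM). Excitatory and inhibitory neurons lay at 144 to 158 CPM, and oligodendrocytes were at the bottom with 33.1, 65.9, 35.9 and 36.5 CPM.

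The cGMP-inhibited pair split between microglia and neurons. Pde3b was a microglial gene, at 924, 400, 553 and 565 CPM, with no overlap with OPC, the second class, at 83.7 to 119 CPM. The remaining classes overlapped in a chain down to astrocytes, at 23.2, 56.9, 27.6 and 65.7 CPM. After thinning, 54.2%, 29.7%, 37.4% and 37.0% of microglial nuclei held a Pde3b UMI, against 2.44%, 4.67%, 2.73% and 5.35% of astrocytes. Pde3a was highest in excitatory (72.2, 86.8, 68.9 and 77.0 CPM) and inhibitory neurons (58.0, 89.5, 55.5 and 61.6 CPM), which overlapped. In astrocytes Pde3a rested on 3, 47, 13 and 16 UMIs, so its level there (3.32, 33.8, 9.22 and 10.1 CPM) is imprecise.

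The calcium-stimulated pair divided the neurons between them. Pde1a was higher in inhibitory neurons (121, 110, 121 and 124 CPM) than in excitatory neurons (38.8, 49.5, 48.3 and 45.2 CPM), and OPC had a like level (113, 106, 162 and 112 CPM). Pde1c had the reverse neuronal order, with 175, 168, 168 and 179 CPM in excitatory and 73.3, 84.1, 82.7 and 81.6 CPM in inhibitory neurons. OPC and oligodendrocytes followed excitatory neurons for Pde1c and overlapped each other, the latter at 99.9, 106, 114 and 131 CPM. In each of the 4 libraries these neuronal orders held.

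Of the enzymes acting on both messengers, Pde10a was about equally abundant in excitatory (674, 765, 732 and 762 CPM) and inhibitory neurons (639, 773, 704 and 757 CPM). OPC (440, 639, 525 and 575 CPM) and microglia (297, 559, 423 and 528 CPM) came next, and each class overlapped its neighbour in the order. Per 1000 CPM of the general neuron markers in the same nuclei, microglia had 24.0, 24.6, 25.9 and 27.5 CPM of Pde10a. Excitatory neurons had 22.2, 25.0, 24.5 and 26.2 CPM on that scale, and OPC 38.7, 32.0, 40.3 and 37.9 CPM. The part of neuronal RNA in the microglial and OPC levels was not tested. Astrocytes had 32.1, 198, 191 and 378 CPM, the widest spread over libraries of any class for this gene. Pde11a belonged to excitatory neurons, at 382, 321, 323 and 321 CPM against 135, 148, 110 and 120 CPM in inhibitory neurons. Its lowest class was astrocytes, at 17.7, 57.6, 14.2 and 25.9 CPM.

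**Figure D1:**
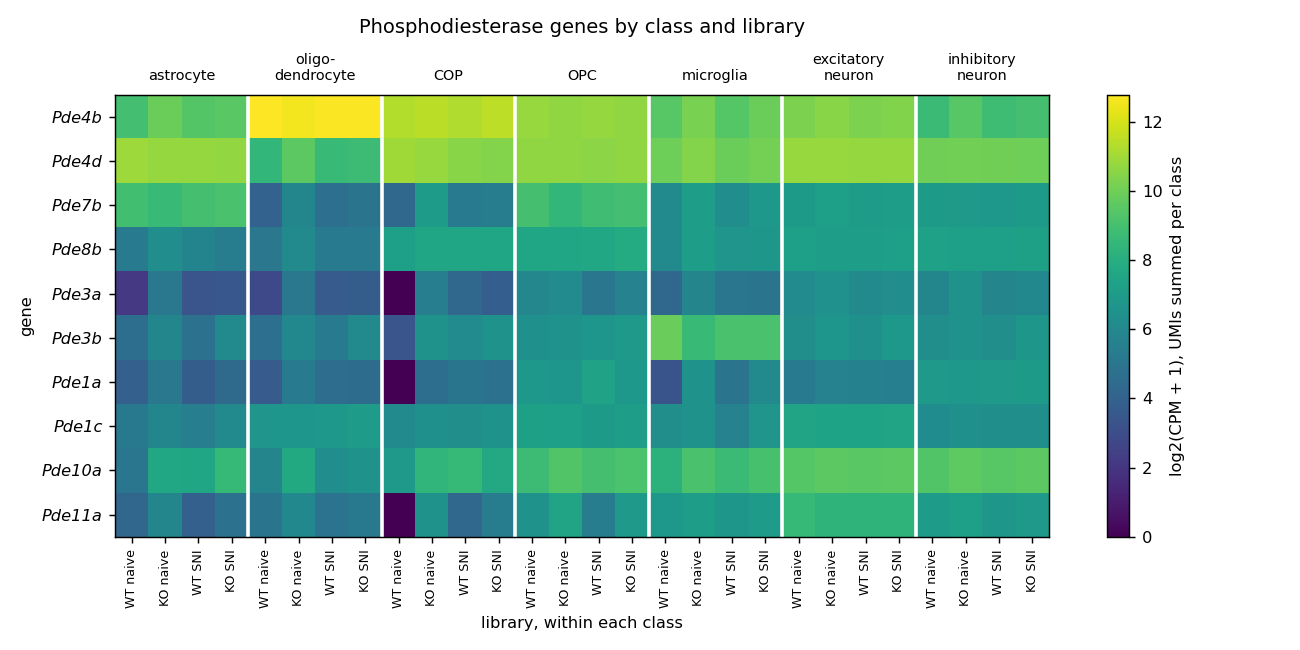
Heat map of log2(CPM + 1) for the 10 members (rows) in 7 cell classes, each split into its 4 libraries (columns). Pde4b in oligodendrocytes is the highest of its row at 6040 to 7103 CPM, Pde3b peaks in microglia at 400 to 924 CPM, and Pde10a in astrocytes runs from 32.1 to 378 CPM across libraries.

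Among the 17 neuron clusters, the members had different peaks. Clusters were built without the genes of the phosphodiesterase and pathway lists, and they are given by number and leading genes. Pde11a peaked in excitatory cluster 8 (led by Gm6213, Fer1l6 and Ccdc172), at 1356, 1153, 1242 and 1233 CPM, and in excitatory cluster 23 (Bnc2, Chst9 and Trhr), at 1289, 974, 1159 and 1041 CPM. At the other end, inhibitory cluster 33 (Rxfp2, Cpne7 and Syt10) had 19.7, 25.2, 19.5 and 19.4 CPM. Pde11a thus ranked first in the same cluster in all 4 libraries, with cluster 23 second in each.

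Pde4d had its peak in excitatory cluster 19 (Cpne4, Dach2 and Bnc2), at 5902, 4813, 4636 and 4810 CPM, ahead of excitatory cluster 6 (Lmo3, Unc5cl and Myo5b) at 2874, 2577, 2665 and 2765 CPM. Inhibitory cluster 25 (Tyr, Chrm3 and Nwd2) was the neuron cluster with the least, at 293, 395, 314 and 280 CPM. Cluster 25 was also lowest for Pde4b, at 208, 437, 178 and 242 CPM. For Pde10a the first place went to excitatory cluster 10 (Maf, Bmp6 and Dpp10), at 1464, 1478, 1398 and 1445 CPM, and inhibitory cluster 16 (Adamts5, Eya2 and Nxph1) had 1182, 1213, 1213 and 1126 CPM. Excitatory cluster 23, second for Pde11a, was lowest for Pde10a, at 211, 416, 290 and 252 CPM.

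The remaining members were narrower. Pde1a peaked in inhibitory cluster 24 (Plch1, Qrfpr and Ecel1), at 355, 336, 302 and 340 CPM, while excitatory cluster 10 had 6.01, 28.9, 15.3 and 19.5 CPM. Pde1c led in cluster 6 among the neurons (461, 387, 427 and 418 CPM) with cluster 11 (Nmu, Gmnc and Mylk) next at 362, 320, 359 and 406 CPM. Pde3a was concentrated in cluster 8 (291, 263, 263 and 263 CPM) and in inhibitory cluster 14 (Hpse2, Rai14 and Rorb), at 233, 291, 195 and 221 CPM. Pde3a is itself among the 5 leading genes of cluster 14, and Pde11a among those of cluster 8. Pde3b had no such peak, and its highest neuron cluster, number 7, had 98.0, 124, 100.4 and 138 CPM.

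Outside the named classes, Pde8b was highest in cluster 32 of all clusters with at least 50 nuclei, which carried both mural and fibroblast markers (led by Atp13a5, Slc6a20a and Pdgfrb) and stayed unnamed. It had 1021, 882, 1049 and 959 CPM there, against 364, 359, 371 and 356 CPM in cluster 24, its highest neuron cluster. Pde1a (251, 308, 201 and 252 CPM) and Pde3a (251, 177, 212 and 252 CPM) were also among the top 3 clusters there in every library. Cluster 28, led by the endothelial genes Flt1, Slco1a4 and Adgrl4 but unnamed for its mural and fibroblast markers, had Pde7b at 422, 398, 353 and 696 CPM, close to astrocytes. Both clusters are small, with 47, 207, 86 and 134 nuclei in cluster 32 and 40, 167, 223 and 152 in cluster 28. Their levels are thus imprecise, most of all in the wild-type naive library.

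**Figure D2:**
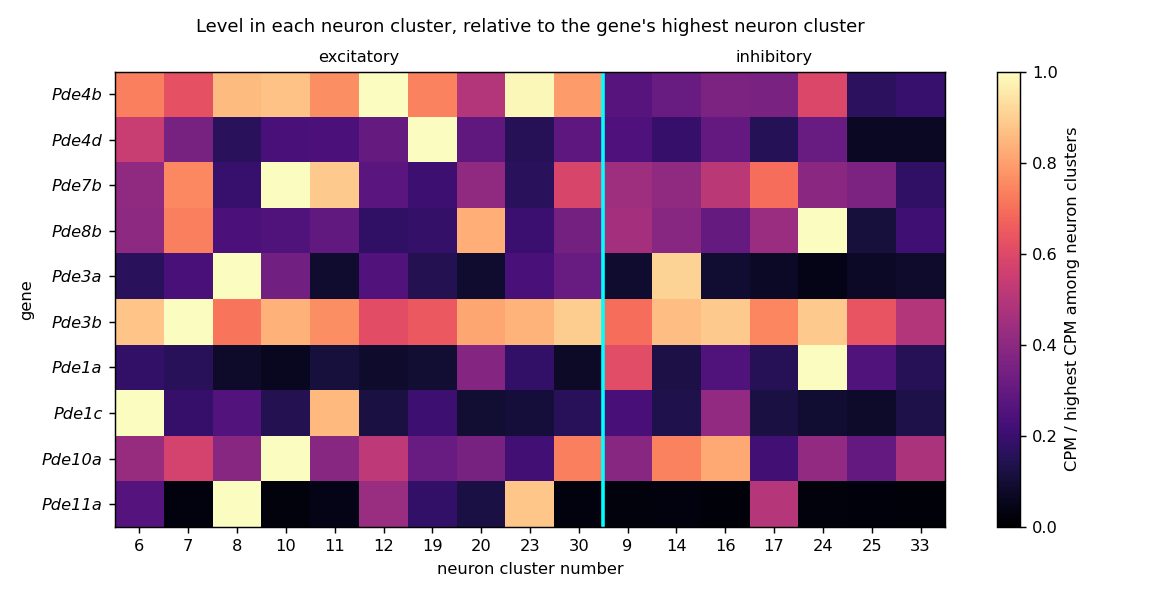
Relative level of each member (rows) over the 17 neuron clusters (columns), each row scaled to its highest cluster, from counts summed over the 4 libraries. Pde11a, Pde1a and Pde3a are concentrated in 1 to 3 clusters each, whereas Pde3b is spread over all of them. Pde4d peaks in cluster 19 but is broadly present, at 1733 to 1806 CPM over excitatory and 1004 to 1077 CPM over inhibitory neurons.

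For the comparisons between libraries, a member is called higher or lower in a class when its CPM differs by more than 2-fold and the 2 libraries hold at least 50 UMIs of it together. Intervals are exact 95% intervals of the log2 ratio and cover counting error only, not differences between animals or preparations. In the naive libraries 18 member and class pairs were higher and 1 was lower in the knockout, of 64 with enough UMIs. Over all genes, 4.56% of such pairs were higher and 4.83% lower. In the SNI libraries 4 of 62 member pairs were higher in the knockout and 0 lower, against 0.797% and 0.554% of all pairs. SNI against naive gave 2 higher and 1 lower of 57 in wild type (0.899% and 0.445% of all pairs) and 0 higher and 4 lower of 64 in the knockout (3.08% and 1.67%). The contrasts share libraries, so they are not independent of each other. A member low in both libraries could reach 50 UMIs only through a high library, as Pde3a did in naive astrocytes, so these counts are read beside the background and not as evidence about the members.

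Pde10a in astrocytes differed between libraries over a range that no other class showed for it. From the 29, 275, 269 and 598 UMIs behind the levels of 32.1, 198, 191 and 378 CPM, the wild-type naive library was lowest and the knockout SNI library highest, with the other 2 alike. The log2 ratio of knockout to wild type was 2.63 (95% interval 2.07 to 3.23) in naive cord and 0.99 (0.78 to 1.20) in SNI cord, the latter just short of 2-fold. SNI to naive gave 2.57 (2.02 to 3.18) in wild type, where 1.39% of all genes were higher, and 0.93 (0.72 to 1.14) in the knockout. Under the other processing settings the wild-type injury ratio ran from 1.56 to 2.73 and stayed past 2-fold in 10 of 10, and the naive genotype ratio ran from 1.92 to 3.00. The knockout injury ratio depended on the clustering, at 0.32 with coarser clusters and -0.13 with each library clustered alone. As shares of thinned nuclei, Pde10a was seen in 2.17% (Clopper-Pearson interval 0.941% to 4.23%), 17% (14.4% to 19.7%), 11.1% (8.89% to 13.6%) and 24.6% (20.3% to 29.3%) of astrocytes. Unthinned shares were 2.84%, 19.3%, 13.4% and 20.8%, and 61.2%, 32.4%, 43.8% and 80.0% of the astrocytes were too shallow to be thinned.

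Neuron-marker levels in astrocytes also differed between libraries. Expressed per 1000 CPM of the 8 general neuron markers in the same nuclei, Pde10a stood at 12.3, 22.6, 51.0 and 88.2 CPM in astrocytes. Excitatory neurons had 22.2, 25.0, 24.5 and 26.2 CPM on the same scale, and inhibitory neurons 21.1, 25.8, 23.6 and 26.0 CPM. The 2 SNI libraries thus had more Pde10a per neuron marker in astrocytes than in neurons, and the 2 naive libraries did not. Sorted by the neuron-marker UMIs in each nucleus, astrocytes with 1 to 5 such UMIs had 31.6 CPM (804 nuclei), 174 CPM (160 nuclei), 191 CPM (1019 nuclei) and 384 CPM (1556 nuclei). With none, they had 22.3 CPM (102 nuclei), 132 CPM (50 nuclei) in wild-type SNI and 443 CPM (82 nuclei) in knockout SNI. The knockout naive library held 0 astrocytes with no neuron-marker UMI. In such nuclei the wild-type injury ratio was 2.56 (0.08 to 5.90) and the SNI genotype ratio 1.75 (0.44 to 3.32), from 8 and 33 UMIs. The part of neuronal RNA in the Pde10a ratios was not tested.

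**Figure D3:**
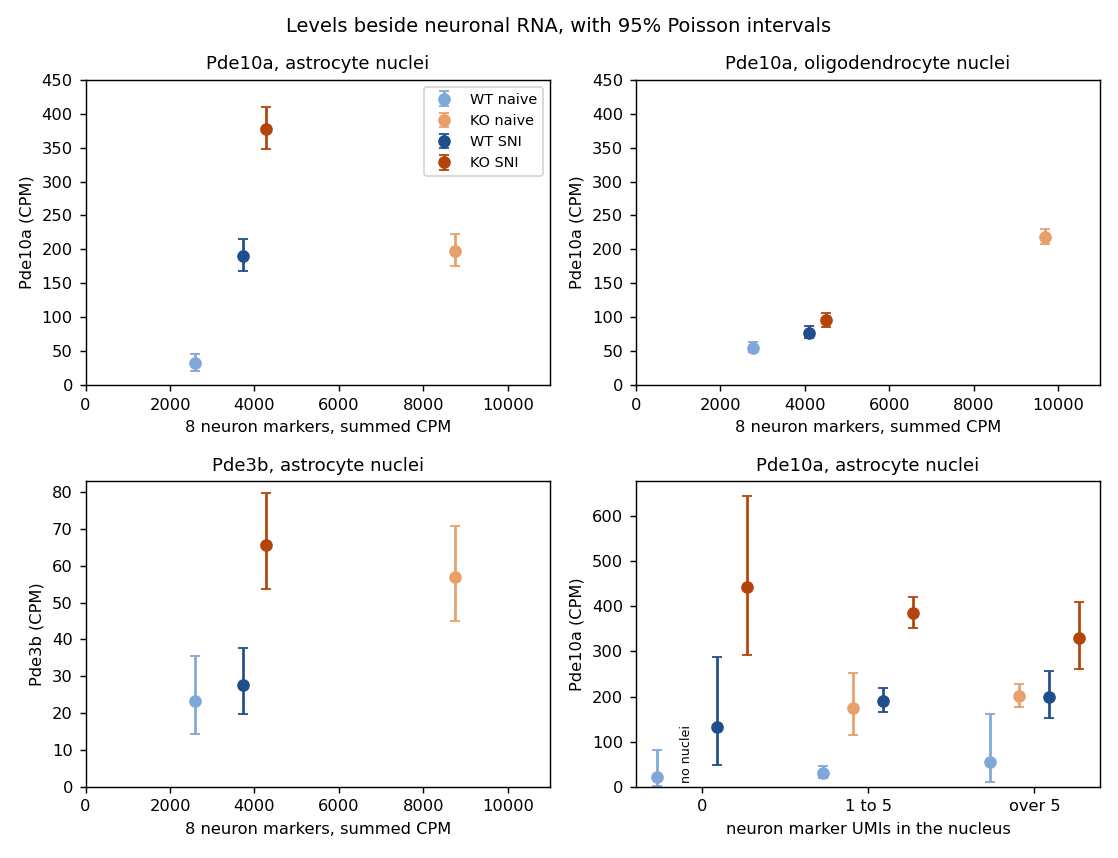
CPM of Pde10a in astrocytes, Pde10a in oligodendrocytes and Pde3b in astrocytes plotted against the summed CPM of 8 general neuron markers (1 point per library), and Pde10a in astrocytes by the number of neuron-marker UMIs per nucleus (bars are 95% Poisson intervals). In oligodendrocytes the knockout naive library is high on both axes, at 219 CPM of Pde10a and 9688 CPM of markers, while in astrocytes the knockout SNI library has the most Pde10a, 378 CPM, at 4283 CPM of markers.

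Pde3b in astrocytes separated the genotypes at a much lower level. From 21, 79, 39 and 104 UMIs, its levels of 23.2, 56.9, 27.6 and 65.7 CPM put both knockout libraries above both wild-type libraries. The log2 ratios of knockout to wild type were 1.29 (0.58 to 2.06) in naive and 1.25 (0.71 to 1.82) in SNI cord. Its injury ratios were 0.25 (-0.55 to 1.09) for wild type and 0.21 (-0.23 to 0.65) for the knockout. The SNI genotype ratio stayed past 2-fold in 7 of 10 other settings and was 0.89 (-0.07 to 1.85) with thinned nuclei. In the few astrocytes with no neuron-marker UMI it had 0 and 2 UMIs, too few to compare. Per 1000 CPM of neuron markers, astrocytes had 8.94, 6.50, 7.39 and 15.3 CPM of Pde3b, above the 2.57, 3.43, 2.86 and 3.87 CPM of excitatory neurons in every library. The 8 markers of microglia, the class with the most Pde3b, summed to 272, 232, 337 and 593 CPM in astrocytes, with none at 0. They were thus lower in the knockout in naive cord and higher in SNI cord. Astrocytes had 85.4, 245, 82.1 and 111 CPM of Pde3b per 1000 CPM of them, against the 156 to 186 CPM of microglia. The part of microglial RNA in the ratios was not tested.

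Another 4 members passed 2-fold in naive knockout astrocytes, so that 6 of 10 were higher and 0 lower, against 7.34% of all genes higher and 2.52% lower in that contrast. They were Pde3a at a log2 ratio of 3.35 (1.72 to 5.68), Pde11a at 1.70 (0.92 to 2.58), Pde1a at 1.24 (0.33 to 2.25) and Pde8b at 1.04 (0.47 to 1.64). Pde4b lay just inside the limit at 0.97 (0.81 to 1.13), from 494, 966, 667 and 723 CPM. The abundant astrocyte members were flat, Pde4d at -0.11 (-0.20 to -0.03) and Pde7b at -0.25 (-0.44 to -0.07). The members' median was 1.14, and that of all 7261 genes was 0.08. Among genes spanning over 200 kb, 31.2% were higher in that contrast, against 2.34% of genes under 50 kb, and the neuron-marker sum was 2598 and 8748 CPM in the 2 libraries. The part of either in these ratios was not tested.

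In SNI cord none of these 4 passed 2-fold between genotypes. Pde11a had a ratio of 0.87 (0.07 to 1.72), Pde1a 0.66 (-0.21 to 1.58) and Pde8b -0.39 (-0.90 to 0.11), and Pde3a had fewer than 50 UMIs. Pde3b was then the single astrocyte member past 2-fold, of 9 with enough UMIs (1.15% of all genes were higher and 0.427% lower). In the knockout, SNI against naive made Pde3a lower by a log2 ratio of -1.74 (-2.66 to -0.90) and Pde11a by -1.15 (-1.73 to -0.59), with 3.03% of all genes lower and 2.31% higher. Pde11a passed 2-fold in 5 of 9 other settings there. Pde4b crossed over, with an injury ratio of 0.43 (0.27 to 0.60) for wild type against -0.42 (-0.53 to -0.30) for the knockout. Oligodendrocyte markers summed to 1519, 2149, 1596 and 1607 CPM in astrocytes, also highest in the knockout naive library. Pde4b had 325, 450, 418 and 450 CPM per 1000 CPM of them, and their part in its ratios was not tested.

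In oligodendrocytes 7 of 10 members were higher and 0 lower in the naive knockout, where 8.33% of all genes were higher and 3.64% lower. Among genes spanning over 200 kb, as 9 of the members do, 41.3% were higher, against 2.78% of genes under 50 kb. Pde10a had 55.2, 219, 77.3 and 95.7 CPM, the knockout naive library standing alone above the other 3. Its naive genotype ratio was 1.99 (1.78 to 2.20), and the knockout injury ratio was -1.19 (-1.36 to -1.03), with 4.39% of all genes lower. Pde3a (6.16, 33.3, 12 and 12.8 CPM), Pde1a (11.8, 38.3, 22.4 and 21.9 CPM) and Pde7b, given above, had the same shape, with naive ratios of 2.43, 1.70 and 1.90. The other 3 were Pde3b at 1.31, Pde11a at 1.07 and Pde4d at 1.06, the last 2 past 2-fold in 5 of 9 other settings, and Pde8b lay at 0.99. Pde4b, the abundant oligodendrocyte gene, went the other way, at -0.23 (-0.26 to -0.21). The oligodendrocyte markers summed to 12828, 10091, 11462 and 12287 CPM in these nuclei. Per 1000 CPM of them Pde4b had 554, 599, 585 and 543 CPM. The part of the marker share in the Pde4b ratio was not tested.

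In SNI oligodendrocytes 0 of the 10 members passed 2-fold between genotypes, with 0.82% of all genes higher and 0.511% lower. Pde3b came nearest, at 0.84 (0.55 to 1.14), from 24.9, 61.8, 37.7 and 67.5 CPM, so both knockout libraries again lay above both wild-type libraries. Microglia markers summed to 305, 247, 358 and 628 CPM there, with 81.6, 251, 105 and 108 CPM of Pde3b per 1000 CPM of them. Neuron markers summed to 2774, 9688, 4108 and 4510 CPM in oligodendrocytes. Per 1000 CPM of them Pde10a had 19.9, 22.6, 18.8 and 21.2 CPM, near the neurons' ratio in every library, and Pde7b 5.46, 5.85, 6.01 and 6.42 CPM against 4.11, 4.90, 4.43 and 4.84 CPM in excitatory neurons. In nuclei lacking UMIs of 5 of the neuron markers the naive Pde10a ratio was 2.14 (1.66 to 2.62). That filter ignores the markers Rbfox1, Meg3 and Nrg3. It kept 1722 wild-type and 408 knockout naive oligodendrocytes, of which 554 and 1 lacked all 8 markers. The nuclei compared could thus still differ in neuronal RNA. Oligodendrocyte cluster 5 held 4910 of its nuclei in the knockout naive library and 31, 63 and 144 in the others. With cluster 3 alone, the one spread over all libraries, the naive Pde10a ratio was 2.08 (1.70 to 2.46). The part of neuronal or microglial RNA in the oligodendrocyte ratios was not tested.

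In microglia the single member lower in a knockout was their own Pde3b. Its 924, 400, 553 and 565 CPM gave a naive genotype ratio of -1.21 (-1.41 to -1.00), with 8.98% of all genes lower in that contrast, and an SNI ratio of 0.03 (-0.16 to 0.22). The wild-type naive library was high and the other 3 were alike or lower, so the injury ratios had opposite signs, -0.74 (-0.95 to -0.53) for wild type against 0.50 (0.32 to 0.68) for the knockout. The 8 microglia markers summed to 5234, 2152, 3544 and 3403 CPM in these nuclei. Per 1000 CPM of those markers Pde3b stood at 176, 186, 156 and 166 CPM. The part of the share of microglial RNA in the Pde3b ratios was not tested.

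Higher in naive knockout microglia were Pde1a at 3.33 (1.92 to 5.23), Pde3a at 1.61 (0.53 to 2.89), Pde8b at 1.13 (0.55 to 1.76) and Pde7b at 1.06 (0.47 to 1.69), 4 of 10 where 6.93% of all genes were higher. The calls for Pde8b and Pde7b held in 4 of 8 and 3 of 8 other settings. Among genes spanning over 200 kb, 23.0% were higher in this contrast. Pde1a rested on 4, 89, 18 and 86 UMIs (9.06, 90.9, 29.8 and 69.3 CPM), so both knockout libraries were above both wild-type libraries. In SNI cord it was at 1.22 (0.47 to 2.04), and Pde1c, from 79.2, 90.9, 49.7 and 101 CPM, at 1.02 (0.43 to 1.64), with 0.982% of all genes higher and 1.69% lower. Neither SNI call held under coarser clusters, where Pde1a was at 0.16 and Pde1c reversed to -0.17. In microglia lacking 5 of the neuron markers Pde1a had 2 UMIs and a ratio of -1.10 after the floor of 3. Neuron markers in microglia summed to 12374, 22724, 16296 and 19207 CPM, and their part in these ratios was not tested.

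In naive OPC 0 of 10 members passed 2-fold between genotypes, with 4.74% of all genes higher and 3.41% lower. Of the 10 ratios 5 were above 0, and their median was 0.0026, against 0.048 for all genes. In other contrasts single members of the precursors passed. Pde11a in OPC had 34, 172, 21 and 70 UMIs (91.8, 177, 41.6 and 122 CPM), higher in the knockout in SNI cord at 1.56 (0.83 to 2.33), with 0.551% of all genes higher. The wild-type SNI library was the lowest, with an injury ratio of -1.14 (-2.0 to -0.32) in wild type where 0.385% of all genes were lower, and that call held in 5 of 9 other settings. In OPC lacking 5 of the neuron markers, where 3 and 4 UMIs were left, the ratios were -0.86 and 0.13. Pde10a in COP had 122, 337, 380 and 213 CPM from 13, 71, 63 and 32 UMIs, with a naive genotype ratio of 1.47 (0.60 to 2.45) and a wild-type injury ratio of 1.64 (0.76 to 2.63), where 17.1% and 4.09% of all genes were higher. Each of these 2 calls held in 6 of 8 other settings. Neuron markers summed to 4385, 13872, 9059 and 7805 CPM in COP, highest in the knockout naive library, whereas Pde10a was highest in the wild-type SNI library. In OPC they summed to 11379, 19965, 13014 and 15160 CPM, so in wild type they were higher after SNI while Pde11a was lower. Their part in these ratios was not tested.

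**Figure D4:**
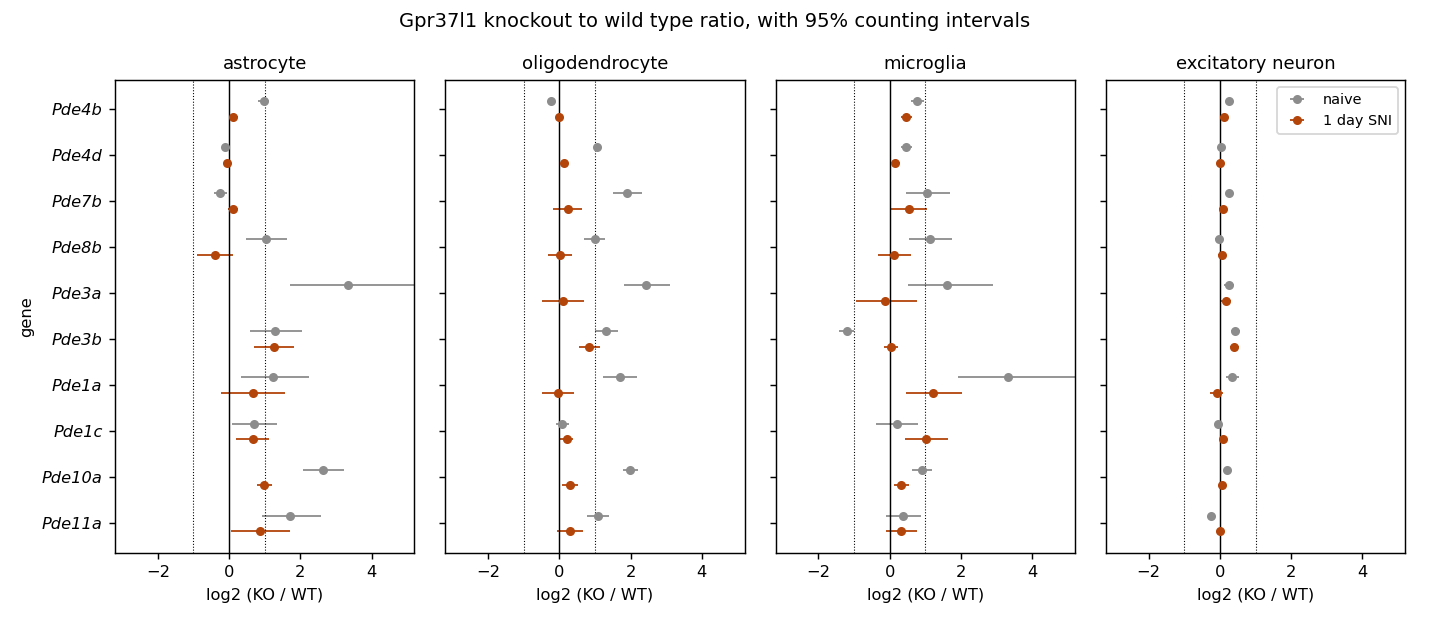
Log2 ratio of knockout to wild type for the 10 members in astrocytes, oligodendrocytes, microglia and excitatory neurons, naive in grey and SNI in orange, with exact 95% counting intervals (some run past the axis edge) and dotted lines at 2-fold. Of the 10 naive points, 8 lie right of 0 in astrocytes (up to 3.35 for Pde3a) and 9 each in oligodendrocytes and microglia, where Pde4b (-0.23) and Pde3b (-1.21) lie to the left, while in excitatory neurons all 10 members lie between the dotted lines.

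In excitatory and inhibitory neurons 0 of 10 members passed 2-fold in any of the 4 contrasts, against 3.09% of all gene, class and contrast combinations, both directions together. Within that limit Pde3b was above wild type in the knockout in both classes. Its excitatory levels were 77.8, 105, 85.3 and 113 CPM, with a naive ratio of 0.43 (0.30 to 0.56) beside an SNI ratio of 0.40 (0.27 to 0.53). Its inhibitory levels were 80.3, 93.3, 79.1 and 107 CPM, with 0.22 (0.04 to 0.40) and 0.44 (0.25 to 0.63). Microglia markers summed to 199, 151, 230 and 368 CPM in excitatory and 175, 139, 210 and 348 CPM in inhibitory neurons, higher in the knockout in SNI cord and lower in naive cord. Per 1000 CPM of them Pde3b went from 371 to 306 CPM (excitatory) and from 376 to 309 CPM (inhibitory) between wild type and knockout in SNI cord. In naive cord it went from 391 to 694 CPM and from 458 to 672 CPM. The part of microglial RNA in the neuronal ratios was not tested. Cluster by cluster, the naive ratio was above 0 in 15 of 16 neuron clusters with enough UMIs (median 0.41) and the SNI ratio in 13 of 15 (median 0.46), with 6 intervals above 0 in each. The highest single clusters were at 0.71 and 0.76. All clusters of a contrast come from the same libraries, so they are not replicates, and no share over all genes was taken for them.

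Pde4b had the largest neuronal difference, in inhibitory neurons. Levels of 418, 707, 454 and 515 CPM put the knockout naive library above the other 3, with a naive ratio of 0.76 (0.68 to 0.83) beside an SNI ratio of 0.18 (0.10 to 0.26). The naive ratio was above 0 in 17 of 17 neuron clusters, and the knockout injury ratio in 0 of 17. Both ratios use the knockout naive library, and clusters of the same libraries are not replicates. Oligodendrocyte markers summed to 797, 1144, 842 and 837 CPM in inhibitory neurons, so the marker sum was also highest in the knockout naive library. Per 1000 CPM of them Pde4b had 525, 618, 540 and 616 CPM there, and 554, 599, 585 and 543 CPM in oligodendrocytes themselves. The part of oligodendrocyte RNA in the difference was not tested. Pde11a in excitatory neurons was highest in wild-type naive nuclei (382 CPM against 321 to 323 CPM), with a naive genotype ratio of -0.25 (-0.31 to -0.19) and a wild-type injury ratio of -0.24 (-0.31 to -0.17). Single clusters held higher naive genotype ratios, with a highest value of 2.27 for Pde1a in cluster 10, 1.71 for Pde7b in cluster 12, 1.52 for Pde11a in cluster 14, 1.22 for Pde3a in cluster 23, 1.16 for Pde4b in cluster 33 and 1.07 for Pde8b in cluster 23. The other 4 members stayed below 2-fold in every neuron cluster with enough UMIs. Each value named is the largest of a member's 11 to 17 such clusters, with no share over all genes beside it. Of these clusters 4 of 14 passed 2-fold for Pde1a, 2 of 14 for Pde7b and 5 of 13 for Pde11a. For Pde3a it was 4 of 11, for Pde4b 2 of 17 and for Pde8b 1 of 15. No share over all genes was taken for any of these cluster counts, and all of them use the knockout naive library. They are thus not read as a result about the members. Pde1a in cluster 10 starts from the low wild-type naive level given above.

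The rest of the cyclic nucleotide pathway was described from 10 lists with 92 genes: other phosphodiesterases, adenylyl and guanylyl cyclases, protein kinases A and G, A-kinase anchors, Epac and Rap genes, cyclic nucleotide-gated channels, G protein alpha subunits and CREB factors. In naive astrocytes 7 of 53 with enough UMIs were higher in the knockout and 0 lower (7.34% and 2.52% of all genes), with a median of 0.30. Among them were the adenylyl cyclase Adcy5 at 1.60, the cGMP-dependent kinase Prkg1 at 1.26, the anchor Pde4dip at 1.17, and Rap1gap (1.52), Rapgef5 (1.30) and Rapgef4 (1.02) of the Rap branch. In that contrast 31.2% of all genes spanning over 200 kb were higher, and the neuron-marker sum was 2598 and 8748 CPM. The part of gene span or neuronal RNA in the pathway ratios was not tested. In SNI astrocytes 1 of 55 was higher, Rapgef5 at 1.08 (0.57 to 1.62), and 0 were lower (1.15% and 0.427% of all genes). Of the 14 other phosphodiesterases, 0 of the 5 with enough UMIs passed 2-fold between genotypes in astrocytes, naive or SNI.

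In naive oligodendrocytes 12 of the 67 pathway genes with enough UMIs were higher and 1 was lower in the knockout (8.33% and 3.64% of all genes), and in SNI oligodendrocytes 0 of 61 passed (0.82% and 0.511%). The higher genes included Prkg2 (2.74) and Prkg1 (2.17), the guanylyl cyclase subunit Gucy1a2 (2.41), the adenylyl cyclases Adcy2 (1.87) and Adcy8 (1.76) and the cGMP phosphodiesterase Pde9a (1.88). The lower one was the soluble adenylyl cyclase Adcy10, at -1.15. In that contrast 41.3% of all genes spanning over 200 kb were higher, and the neuron-marker sum was 2774 and 9688 CPM. The part of either in these ratios was not tested. In naive microglia 4 of 48 were higher and 3 lower, shares near the 6.93% and 8.98% of all genes. The 3 lower genes were Rapgef5 at -1.27 (736, 305, 749 and 531 CPM), Adcy7 at -1.35 and Rap1b at -1.10. In SNI microglia 0 of 53 passed (0.982% and 1.69% of all genes).

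Genes with the most similar pattern were taken over the 28 class and library sums, by Pearson's r of log2(CPM + 10), as a description: the sums share libraries, depth and any free RNA. For Pde11a the closest was Zfp618 (r = 0.962), for Pde3a Scn1a (0.967), for Pde8b Csmd1 (0.960), for Pde4b Il1rap (0.956) and for Pde3b Tanc2 (0.951). Pde7b was most like Sulf1 (0.940), Pde4d like Lsamp (0.934) and Pde10a like Kcnip1 (0.931). The lowest values were for Pde1c with Mtss1 (0.887) and Pde1a with Gm45159 (0.887).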

How the data were processed

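Nuclei of the mouse dorsal horn were profiled in 4 libraries, 1 per group. The deposited values are raw UMI counts per gene and barcode, read as such per the file headers and from their whole-number values. Cell Ranger 7.0.0, Seurat 4.3.0, R 4.3.0 and GRCm38 are named in the submitters' processing notes; how barcodes were filtered before deposit is not given in the sources used here. Each barcode already held at least 500 UMIs.

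Barcodes with under 300 genes or over 5% mitochondrial UMIs were removed (552 of 112746). Nuclei with Scrublet doublet scores (scanpy 1.11.5) above the 90th percentile of each library were removed, since the automatic limit marked 0% and 0.111% in 2 libraries. The remaining nuclei were clustered jointly (3000 variable genes, leaving out the members, the pathway lists, Malat1 and mitochondrial genes; 40 components; Leiden resolution 1; no batch correction) and classes were named from marker lists, with naming limits set after the clusters were seen. Clusters with markers of a second class or a median doublet score of 0.2 or more stayed unnamed. Counts were summed per class and library and scaled to CPM without mitochondrial genes. Levels have exact Poisson, ratios exact conditional binomial and shares Clopper-Pearson 95% intervals, and a count of 0 was replaced by 3 in ratios. With 1 library per group no test was run. Depth was 35197290 to 69572640 UMIs per library, and intervals cover counting error only.

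The members and all lists were chosen with earlier results of these data known. Named genes are the members, Gpr37l1, up to 4 genes per pathway list by the size of their ratio, the genes most like each member and the leading genes of clusters. The alternatives are 11 planned and 2 added settings. Of the 32285 genes 32235 were matched to GENCODE M21. Single values of some genes on the pathway lists are not reported here.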

Additional observations from a re-analysis of the deposited data

Results flagged for a closer look

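In 11 cases a member had ratios with opposite signs in the 2 genotypes, or in naive and SNI cord, with both counting intervals away from 0. With 1 library per group the difference between the 2 ratios was not tested in any of them. In 10 cases the ratio is SNI to naive, first in wild type and then in the knockout, as log2 values. Pde3b in microglia had -0.74 and 0.50. In astrocytes, Pde4b had 0.43 and -0.42, and in inhibitory neurons the same gene had 0.12 and -0.46. Pde4b in oligodendrocytes had -0.083 and 0.14, the smallest of these differences. In oligodendrocytes another 5 members did so: Pde10a with 0.49 and -1.19, Pde3a with 0.96 and -1.38, Pde4d with 0.15 and -0.77, Pde1a with 0.93 and -0.81, and Pde7b with 0.70 and -0.97. Pde10a in COP had injury ratios of 1.64 and -0.66, and its genotype ratios there were 1.47 in naive and -0.83 in SNI cord, which is the remaining case. Each of the 11 rests on the knockout naive library, whose glia had the highest neuron-marker sums (9688 CPM in oligodendrocytes against 2774 to 4510 CPM in the other 3). The part of those markers in the ratios was not tested.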

How the results depend on the processing

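No paired analysis was possible because each group is 1 library and the labels give no replicate numbers. No library could be left out for the same reason. Over the main settings 19, 4, 3 and 4 member and class pairs passed 2-fold in the naive genotype, SNI genotype, wild-type injury and knockout injury contrasts. With nuclei of at least 500 genes and 1000 UMIs the knockout injury count was 2. Coarser clusters (resolution 0.5) gave 2, 5 and 2 in the last 3 contrasts, and each library clustered on its own gave 9, 8 and 10. With nuclei thinned to 1000 UMIs the naive genotype count was 12. Glial nuclei lacking UMIs of 5 neuron markers gave 5, 1 and 1 in the first 3 contrasts, where the same pairs gave 13, 4 and 2 with all nuclei. At 1.5-fold the last 3 counts were 10, 10 and 14, and with no UMI minimum the injury counts were 6 and 7. The causes of these shifts were not tested, apart from the wider limits at 1.5-fold and with no minimum, which admit more pairs.

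Another 2 settings were chosen after seeing the data. With oligodendrocyte cluster 3 alone, where only oligodendrocyte pairs can change, the counts were 16, 4, 3 and 4. Glial nuclei lacking all 8 neuron markers gave 0 in each contrast, where 0, 1, 1 and 0 of the same pairs had passed, and knockout naive glia could not be compared at all. The wild-type injury pair was Pde10a in astrocytes, whose ratio stayed at 2.56 but rested on 8 UMIs, under the minimum of 50. Of the pairs past 2-fold in the main settings, signs reversed in 5 values. The first was Pde1c in microglia in SNI cord at -0.17 with resolution 0.5. In nuclei lacking 5 markers they were Pde11a in OPC at -0.86 (SNI genotype) and 0.13 (wild-type injury) and Pde1a in microglia at -1.10 (SNI genotype). In those lacking 8 it was Pde3b in astrocytes at -1.01 (SNI genotype). The last 4 rest on 2 to 4 UMIs. For Pde3b the sign comes from the floor of 3, since wild type had 0 UMIs and the knockout 2. The Pde1a value also uses that floor, so neither is a reversal seen in the counts. Of 513 recomputed ratios of named pairs, 441 moved by less than their counting interval, 67 moved further and 5 reversed. The 441 include 54 of the 56 ratios with oligodendrocyte cluster 3 alone. In that setting the ratios of the other classes could not move. A reversal was counted only for pairs past 2-fold in the main settings. Sign changes of other pairs, such as the knockout injury ratio of Pde10a in astrocytes, are counted as moves. Depth limits the low members most: Pde3a, Pde1a and Pde11a had under 50 UMIs in several glial libraries, and ratios past 2-fold there can rest on a single library.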
